A study of Homo sapiens with 12 samples.

Results

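The nuclear genes for the subunits of the 5 oxidative phosphorylation complexes were examined in the breast cancer cell line MDA-MB231. Members were taken by gene symbol from the count table of the series: symbols that begin with NDUFA, NDUFB, NDUFC, NDUFS or NDUFV and a digit, the 4 succinate dehydrogenase genes, and symbols that begin with UQCR, with COX and a digit of the structural subunits, or with ATP5. The rule found 89 of 27745 genes, without using any measured value. They comprised 36 genes of complex I, 4 of complex II, 9 of complex III, 17 of complex IV and 16 of complex V. A further 7 symbols met the rule and were counted apart from the complexes, among them NDUFA4, a complex IV subunit with a complex I name, its paralogue NDUFA4L2, 2 read-through genes and a pseudogene. The complexes are called here by these numbers, and the 82 genes of complexes I to V are called subunit genes.

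RNA-seq had been done on cells with a control hairpin (sh_control), a hairpin against TDP43 (sh_TDP43) and a hairpin against SRSF3 (sh_SRSF3), with 2 libraries each. RIP-seq, in which a tagged protein is precipitated and the RNA that comes down with it is sequenced, had been done for Flag-TDP43 and for Flag-SRSF3, with 1 RIP and 1 input library each. TDP43, encoded by TARDBP, is an RNA-binding protein of the hnRNP class that prefers UG-rich RNA. SRSF3 belongs to the SR family of splicing factors, whose tails are rich in arginine and serine. No treatment, time or clone is named in the labels, 1 hairpin per target is named there, and nothing says whether the replicate libraries came from separate cultures. A combined knockdown is also named and was not analysed here. Counted reads ranged from 34457445 to 38326930 per hairpin library, and the RIP and input libraries held 27.7 to 28.5 M reads by the value of 1 read in their lowest FPKM.

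Oxidative phosphorylation passes electrons from NADH through complex I and from succinate through complex II to ubiquinone, then through complex III and cytochrome c to complex IV, which reduces oxygen. Complexes I, III and IV pump protons across the inner mitochondrial membrane, and complex V, the ATP synthase, uses the gradient to make ATP. Most subunits are encoded in the nucleus and assembled with a small set of subunits encoded in mitochondrial DNA. Protein amounts and complex assembly were not measured here.

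The hairpins lowered their targets. TARDBP was at 168 and 125 CPM (read counts scaled to library size with edgeR's TMM factors) in the sh_control libraries and at 34.4 and 31.3 CPM in sh_TDP43, where its log2 change was -2.15 ± 0.13 (SE) with an adjusted p of 3.51e-08. SRSF3 was at 459 and 404 CPM in sh_control and at 64.0 and 61.7 CPM in sh_SRSF3, a log2 change of -2.78 ± 0.10 (adjusted p = 1.63e-10). SRSF3 was also lower in sh_TDP43, at 187 and 180 CPM (log2 change -1.23 ± 0.10, adjusted p = 3.05e-07), and TARDBP was lower in sh_SRSF3, at 108 and 102 CPM (log2 change -0.48 ± 0.12, adjusted p = 0.00326). Adjusted p-values here and below are from edgeR's quasi-likelihood test on 6 libraries, with Benjamini-Hochberg adjustment over 15026 genes, and a gene is said to have risen or fallen where that value was under 0.05. A list of 6 genes typical of this cell line summed to 7060 to 7095 CPM in sh_control, 4536 to 4815 CPM in sh_TDP43 and 6026 to 6290 CPM in sh_SRSF3. Of these 6, 0 rose and 4 fell in sh_TDP43, and 2 rose and 3 fell in sh_SRSF3. Haematopoietic markers summed to 119 to 147 CPM in sh_control, 75.4 to 83.3 CPM in sh_TDP43 and 37.0 to 38.6 CPM in sh_SRSF3. Of the 3 tested haematopoietic markers, 1 rose and 1 fell in sh_TDP43, and 3 fell in sh_SRSF3. Embryonic kidney markers summed to 10.8 to 14.3, 8.30 to 10.4 and 1.52 to 3.21 CPM in the same order, with LIN28B at 0 in every library. Luminal markers summed to 1123 to 1150 CPM in sh_control, 1489 to 1576 CPM in sh_TDP43 and 1475 to 1604 CPM in sh_SRSF3. Of the 6 tested luminal markers, 3 rose in each knockdown and 3 were not called, with lowest log2 changes of -0.05 and -0.18. Fibroblast markers summed to 22.7 to 23.5, 22.3 to 24.8 and 38.96 to 42.85 CPM. Of the 5 tested fibroblast markers, 1 rose and 1 fell in sh_TDP43, and 2 rose and 1 fell in sh_SRSF3. The part of these shifts in the members' values was not tested. In such bulk libraries fewer cells with a transcript and less of it per cell cannot be told apart.

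Of the 89 members, 81 passed edgeR's filter on low counts, and 77 of these were subunit genes. The 8 that did not pass were COX4I2, COX6A2, COX7B2, COX8C, ATP5L2, ATP5J2-PTCD1, NDUFA4L2 and NDUFC2-KCTD14. They include isoforms known from lung, heart, muscle, testis or hypoxic cells, and COX6A2 had no read in any of the 6 libraries. Levels per kilobase of exon spanned more than the difference between complexes. In sh_control the median level was 19.0 CPM per kb for the tested genes of complex I, 22.1 for complex II, 34.8 for complex III, 29.5 for complex IV and 32.2 for complex V. The range within complex I alone was 0.261 to 223 CPM per kb. Its low end was NDUFA7, with 9 and 19 reads in sh_control and 33.5% of its exon bases shared with CTD-2550O8.5 or RPS28. In the Flag-TDP43 and Flag-SRSF3 inputs NDUFA7 was at 10.7 and 12.6 FPKM, so its low level here is uncertain. The gene with the highest level per kb was ATP5B in complex V, which encodes the catalytic beta subunit of the F1 head, at 324.3 ± 14.1 CPM per kb in sh_control (SD, n = 2). It was followed by NDUFS5 of complex I at 223.0 ± 13.0 and COX8A of complex IV at 192.9 ± 7.6 CPM per kb, which did not overlap with each other or with ATP5B across the sh_control libraries. COX8A shares 34.5% of its exon bases with AP000721.4. UQCRH, the hinge protein of complex III, stood at 72.5 ± 9.1 CPM per kb and SDHD, a membrane anchor of complex II, at 26.7 ± 1.0 CPM per kb.

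**Figure D1:**
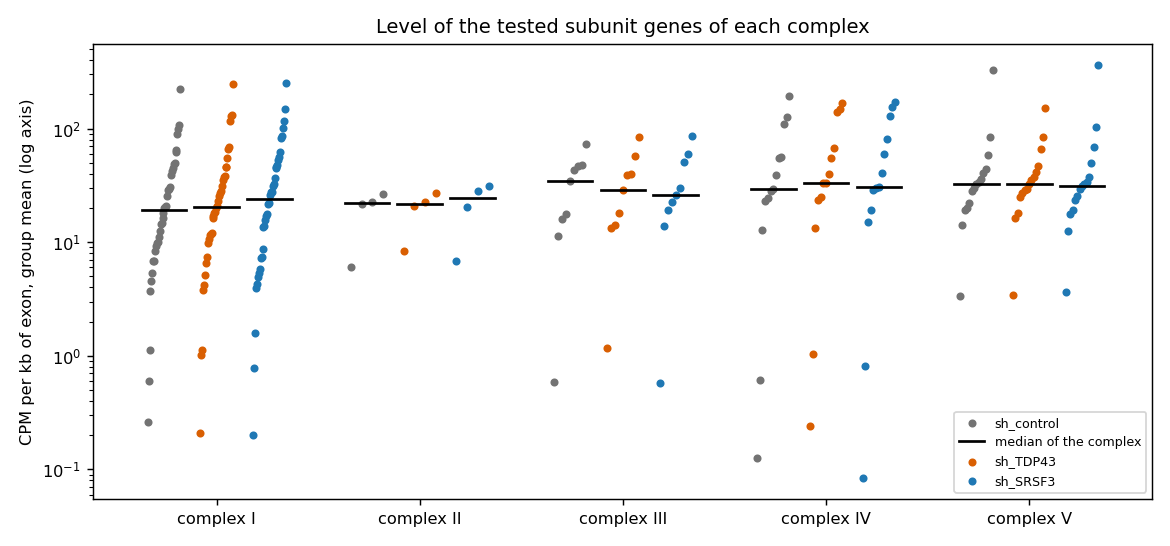
Group mean level of each tested subunit gene in CPM per kilobase of exon on a log axis, by complex and hairpin group, with the median of the complex as a black line. Medians of the complexes lay between 19.0 and 34.8 CPM per kb in sh_control, and the highest point, ATP5B in complex V, was at 324.3 CPM per kb in sh_control and 151.0 CPM per kb in sh_TDP43.

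In the TDP43 knockdown, subunit genes were mostly near their control level, with a few large exceptions. NDUFS4 of complex I fell by 1.12 and ATP5B of complex V by 1.10 on the log2 scale, and NDUFV3 of complex I fell by 0.70. Of the 17 subunit genes that rose, 10 were in complex I, which holds 36 of the 77 tested. Of the 81 tested members, 18 rose and 5 fell, or 28.4%, beside 44.8% of all genes called in this comparison (20.7% higher and 24.1% lower). The median log2 change of the 77 subunit genes was 0.14, beside -0.003 for all genes tested. Without sh_control replicate 2 it was 0.035, beside 0.004 for all genes. Groups did not overlap for 50 of the 81 members, beside 73.2% of all genes. Under upper-quartile scaling the calls were 32 higher and 3 lower. The median of the subunit genes was 0.103 without sh_TDP43 replicate 1 and 0.155 without sh_TDP43 replicate 2, beside 0.001 and -0.014 for all genes.

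In complex I, 10 genes rose and 2 fell of 36, with a median log2 change of 0.15. Of the 7 nuclear core subunits, which carry the flavin and the iron-sulfur clusters and the quinone site, 4 rose, among them NDUFS1, NDUFS8 and NDUFV1, with log2 changes of 0.28, 0.42 and 0.35. NDUFS8 was called in all 11 alternative settings, NDUFV1 was not called without sh_control replicate 2 or either sh_TDP43 library, and NDUFS1 lost its call in 4 of the 6 settings that leave out a library. The 29 accessory subunits, which surround the core and are needed for its assembly and stability, had 6 rises and 2 falls. Complex II had 1 rise of 4 (median 0.01), complex III had 2 rises and 2 falls of 9 (median 0.01), complex IV had 3 rises of 13 tested (median 0.16), and complex V had 1 rise and 1 fall of 15 tested (median 0.03).

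NDUFS4, an accessory subunit of the NADH-oxidising arm of complex I that is joined late in assembly, was at 48.8 and 42.5 CPM in sh_control and 23.1 and 19.0 CPM in sh_TDP43. The sh_TDP43 libraries were both below the sh_control libraries. The log2 change was -1.12 ± 0.12 (adjusted p = 5.34e-06). NDUFS4 spans chr5:52856463-52979170 (GRCh37, plus strand) and shares no exon base with another gene of the count table. ATP5B, at chr12:57031959-57039852 (GRCh37, minus strand), was at 776 and 730 CPM in sh_control and 384 and 317 CPM in sh_TDP43 (log2 change -1.10 ± 0.11, adjusted p = 2.48e-06). ATP5B supplied 30.5% and 31.4% of the summed CPM of complex V in sh_control and 17.7% and 15.4% in sh_TDP43. Without ATP5B, the complex V genes summed to 1766 and 1595 CPM in sh_control and 1789 and 1740 CPM in sh_TDP43, and these sums overlapped between the groups.

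NDUFV3, an accessory subunit beside the flavoprotein of complex I, was at 45.0 and 41.3 CPM in sh_control and 27.4 and 25.9 CPM in sh_TDP43 (log2 change -0.70 ± 0.11, adjusted p = 0.000157). The other falls were smaller and in complex III. UQCRQ, a small subunit, changed by -0.28 (adjusted p = 0.0302) and UQCRFS1, the Rieske iron-sulfur protein, by -0.27 (adjusted p = 0.0427) on the log2 scale. Neither passed the threshold under upper-quartile scaling, where adjusted p was 0.131 for UQCRQ and 0.162 for UQCRFS1. Both calls were also lost without sh_control replicate 1 or sh_TDP43 replicate 2, that of UQCRQ without sh_TDP43 replicate 1, and that of UQCRFS1 without sh_SRSF3 replicate 2, in DESeq2 and with only the 2 groups compared.

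Among the rises, NDUFB5, an accessory subunit of the membrane arm of complex I, was at 64.5 and 65.3 CPM in sh_control and 101 and 98.0 CPM in sh_TDP43 (log2 change 0.61 ± 0.09, adjusted p = 0.000104). ATP5H, subunit d of the peripheral stalk of complex V, was at 62.8 and 62.3 CPM in sh_control and 86.2 and 98.4 CPM in sh_TDP43 (log2 change 0.56 ± 0.10, adjusted p = 0.000347). NDUFA3, another accessory subunit of complex I, rose by 0.49 and SDHC, a membrane anchor of complex II, by 0.47 on the log2 scale. UQCRHL, an intronless copy of UQCRH, had the highest log2 change at 0.99 ± 0.33 (adjusted p = 0.025). It was at 1.13 and 1.41 CPM in sh_control and 2.28 and 2.78 CPM in sh_TDP43, and since it resembles UQCRH its count is uncertain. Its call was lost without sh_control replicate 1 or either sh_TDP43 library.

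**Figure D2:**
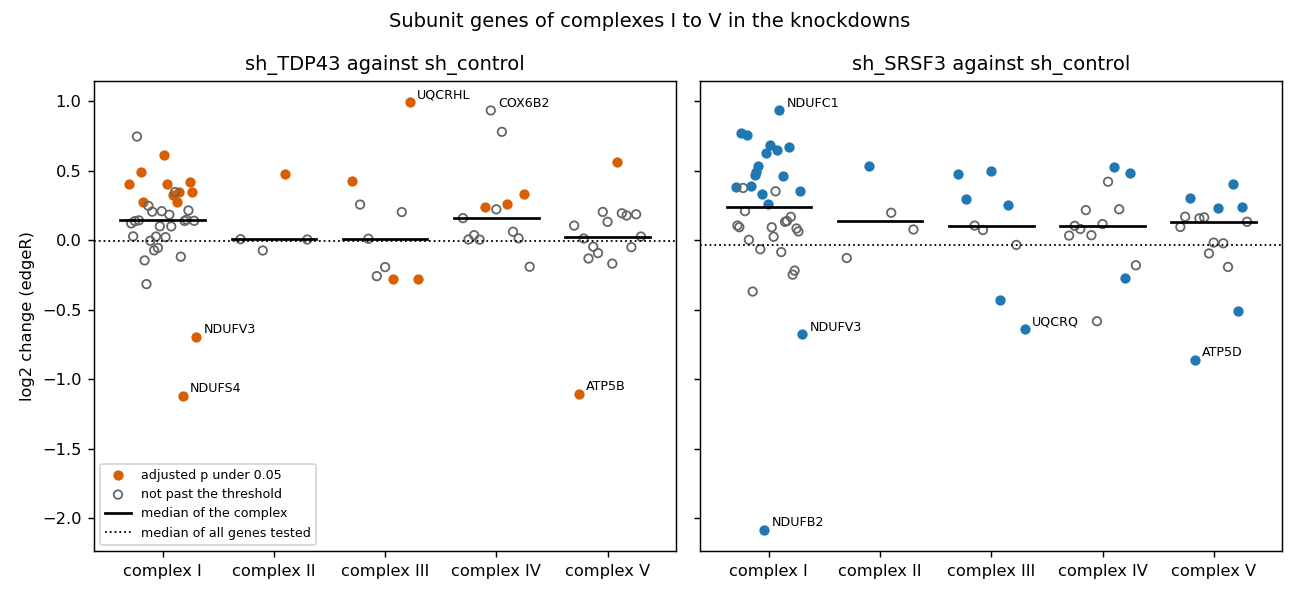
Log2 change of each tested subunit gene in sh_TDP43 and in sh_SRSF3, both against the same sh_control libraries, by complex. Filled points passed an adjusted p under 0.05 and open points did not, black lines are medians of the complexes, and the dotted line is the median of all genes tested; NDUFS4 at -1.12, ATP5B at -1.10 and NDUFB2 at -2.08 lie farthest below it.

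In the SRSF3 knockdown, more members were called, and 1 gene stood far below all others. NDUFB2, an accessory subunit of the membrane arm of complex I, fell by 2.08 on the log2 scale. Of the 27 subunit genes that rose, 16 were in complex I, which holds 36 of the 77 tested. Of the 81 tested members 29 rose and 7 fell, or 44.4%, beside 66.9% of all genes (32.5% higher and 34.4% lower). The median log2 change of the 77 subunit genes was 0.14, beside -0.03 for all genes tested, and without sh_control replicate 1 it was 0.229. Groups did not overlap for 56 of the 81 members, beside 83.2% of all genes. Under upper-quartile scaling, which moved the median of all genes to -0.19, the calls were 18 higher and 12 lower, and the median of the subunit genes was -0.01. Relative to the median of all genes, that of the subunit genes was 0.17 higher under either scaling. Scaling moves all changes alike, so this difference could hardly change and is no check.

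Complex I had 16 rises and 2 falls of 36, with a median log2 change of 0.24. Of the 29 accessory subunits 14 rose and 2 fell, and of the 7 core subunits 2 rose. Complex II had 1 rise of 4 (median 0.14), complex III 4 rises and 2 falls of 9 (median 0.11), complex IV 2 rises and 1 fall of 13 (median 0.10) and complex V 4 rises and 2 falls of 15 (median 0.13). Under upper-quartile scaling the medians of complexes II to V lay between -0.05 and -0.02, and that of complex I was 0.08.

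NDUFB2 was at 106 and 77.9 CPM in sh_control, 90.7 and 86.8 CPM in sh_TDP43, and 26.05 and 17.59 CPM in sh_SRSF3. The sh_SRSF3 libraries were below the other 4, and the sh_control libraries spanned those of sh_TDP43. The log2 change in sh_SRSF3 was -2.08 ± 0.17 (adjusted p = 1.09e-07). NDUFB2 lies at chr7:140390577-140422590 (GRCh37, plus strand), and 29.3% of its exon bases are shared with ADCK2 or BRAF, so that reads on those bases could not be assigned to it. ATP5D, the delta subunit of the rotating central stalk of complex V, was at 80.6 and 64.1 CPM in sh_control and 42.4 and 37.4 CPM in sh_SRSF3 (log2 change -0.86 ± 0.12, adjusted p = 1.75e-05). ATP5J2, subunit f of the membrane part of complex V, was at 87.5 and 76.8 CPM in sh_control and 60.1 and 55.2 CPM in sh_SRSF3 (log2 change -0.51 ± 0.10, adjusted p = 0.00037). Neither ATP5D nor ATP5J2 was called in sh_TDP43, where their log2 changes were -0.13 and -0.05. COX7B, a small subunit of complex IV, changed by -0.27 (adjusted p = 0.0297), a call lost without replicate 2 of sh_control or of sh_SRSF3.

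NDUFV3 was at 26.5 and 27.5 CPM in sh_SRSF3, close to its level in sh_TDP43, with a log2 change of -0.68 ± 0.11 (adjusted p = 7.97e-05). UQCRQ was at 71.99 and 66.07 CPM in sh_control, 58.0 and 56.0 CPM in sh_TDP43 and 45.4 and 43.1 CPM in sh_SRSF3, where its log2 change was -0.64 ± 0.10 (adjusted p = 4.2e-05). Of the exon bases of UQCRQ, 20.8% are shared with GDF9. UQCRFS1 changed by -0.43 in sh_SRSF3 (adjusted p = 0.00224).

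The rises in sh_SRSF3 were led by complex I accessory subunits. NDUFC1 was at 29.3 and 27.2 CPM in sh_control, 36.0 and 34.8 CPM in sh_TDP43 and 55.8 and 52.2 CPM in sh_SRSF3 (log2 change 0.94 ± 0.10, adjusted p = 2.34e-06). NDUFA12, a paralogue of the assembly factor NDUFAF2, was at 101 and 80.1 CPM in sh_control and 154 and 155 CPM in sh_SRSF3 (log2 change 0.77 ± 0.11, adjusted p = 2.06e-05). NDUFA3 was at 41.9 and 39.5 CPM in sh_control, 54.7 and 59.8 CPM in sh_TDP43 and 67.4 and 70.4 CPM in sh_SRSF3 (log2 change 0.76 ± 0.10, adjusted p = 9.65e-06). NDUFB5 was at 99.4 and 110 CPM (log2 change 0.69 ± 0.09, adjusted p = 1.36e-05). Outside complex I, SDHB, the iron-sulfur subunit of complex II, rose from 56.8 and 50.1 CPM to 78.9 and 75.7 CPM (log2 change 0.53 ± 0.10, adjusted p = 0.000295), and UQCRC2, core protein 2 of complex III, rose by 0.50 (adjusted p = 0.00021).

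**Figure D3:**
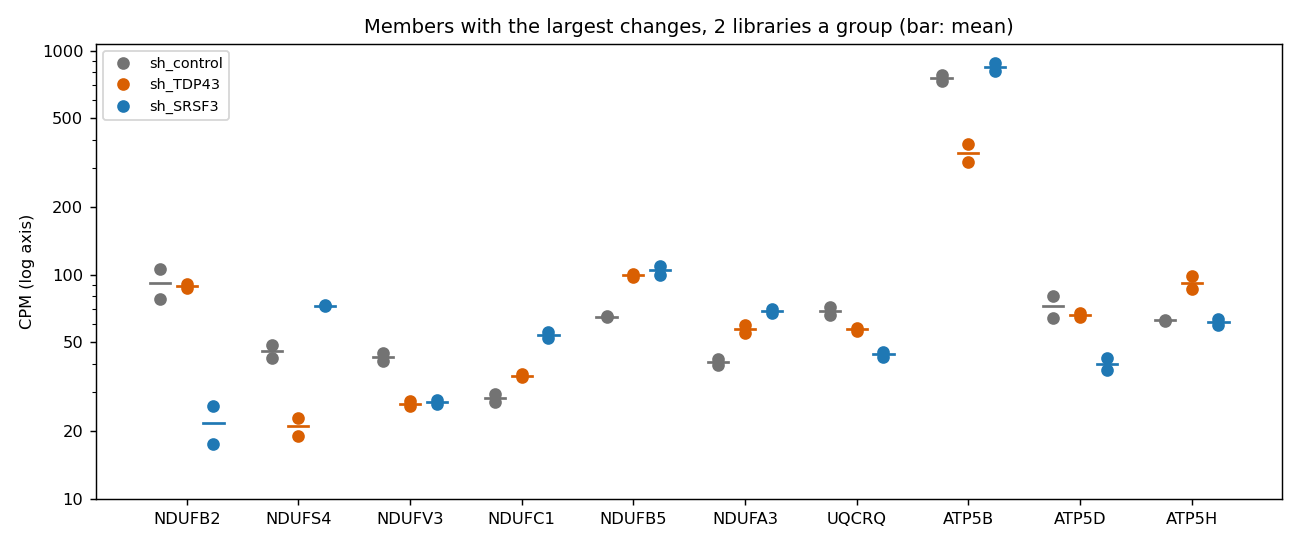
CPM on a log axis of 10 members with large changes, with 1 point per library (2 a group) and a bar at the group mean. NDUFB2 was low in sh_SRSF3 (26.05 and 17.59 CPM), ATP5B low in sh_TDP43 (384 and 317 CPM), and NDUFS4 low in sh_TDP43 (23.1 and 19.0 CPM) and high in sh_SRSF3 (72.3 and 73.0 CPM).

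Both knockdowns were set against the same sh_control libraries, so their changes are not independent, and in control replicate 1 the subunit genes were higher than in replicate 2 by a median of 0.14 on the log2 scale, beside -0.002 for all genes. The values of the 2 comparisons are therefore given side by side and not as an overlap. COX7C, a small complex IV subunit, had log2 changes of 0.34 in sh_TDP43 and 0.48 in sh_SRSF3, and COX7A2, another, had 0.26 and 0.53. NDUFA4, which is counted here apart from the complexes, had 0.33 and 0.45. UQCR10, a small complex III subunit, had 0.42 and 0.47. In complex I, NDUFA1, which shares 44.5% of its exon bases with RNF113A, had 0.40 and 0.38. NDUFS1, the largest core subunit, had 0.28 and 0.46. Each of these 12 changes passed the threshold with all 6 libraries. Without sh_control replicate 2, the sh_TDP43 calls of COX7A2, NDUFA4, UQCR10 and NDUFS1 were lost. Those of UQCR10 and NDUFS1 were also lost without sh_TDP43 replicate 1, that of NDUFS1 without either sh_SRSF3 library, and that of COX7A2 without any 1 of the other libraries but sh_control replicate 1. The calls of all 6 genes in sh_SRSF3 held in the 11 alternatives. NDUFS4 was called in opposite directions, lower in sh_TDP43 and higher in sh_SRSF3. In sh_TDP43, 7 of the 81 members (8.64%) were higher by at least 0.5 on the log2 scale and 3 (3.70%) lower, beside 20.2% and 21% of all genes. Of these, 3 of the 7 and all 3 passed the test. In sh_SRSF3, 10 members (12.3%) were that much higher and 7 (8.64%) lower, beside 28.1% and 34.5% of all genes, and 10 and 5 of them passed.

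The direct comparison sets the 2 knockdowns against each other. The sh_control libraries still entered its filter on low counts, its scaling and its estimate of the spread. Of the 81 members 18 were higher and 18 lower in sh_SRSF3 than in sh_TDP43, or 44.4%, beside 65.5% of all genes (32% higher and 33.5% lower). Groups did not overlap for 59 of the 81 members, beside 83.8% of all genes. NDUFS4 was at 72.3 and 73.0 CPM in sh_SRSF3, above both sh_control and sh_TDP43, and the difference from sh_TDP43 was 1.79 ± 0.12 on the log2 scale (adjusted p = 1.87e-08). ATP5B differed by 1.27 ± 0.11 (adjusted p = 1.72e-07), with 880 and 815 CPM in sh_SRSF3. NDUFB2 differed by -2.03 ± 0.17 (adjusted p = 1.57e-07). Other differences were 0.69 for UQCRC2, 0.64 for NDUFA12, 0.61 for NDUFC1, -0.73 for ATP5D, -0.58 for ATP5H and -0.46 for ATP5J2, and each passed the threshold. Of the 7 core subunits of complex I, 3 (NDUFS7, NDUFS8 and NDUFV1) were lower in sh_SRSF3 than in sh_TDP43, though each of these calls was lost without sh_TDP43 replicate 2, and 10 of the 29 accessory subunits were higher and 5 lower. Under upper-quartile scaling 9 members were higher and 30 lower. The median log2 difference of the subunit genes was 0.050 with all 6 libraries and 0.008 without sh_SRSF3 replicate 1.

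Complex II is described whole, since it is small and has no mitochondrially encoded subunit. SDHA, the flavoprotein that oxidises succinate, was at 205 and 170 CPM in sh_control, 197 and 181 CPM in sh_TDP43, and 175 and 169 CPM in sh_SRSF3, and SDHD was at 68.8 and 65.2 CPM, 71.9 and 62.7 CPM, and 70.7 and 70.7 CPM. Neither was called in either knockdown. SDHB was called in sh_SRSF3 and SDHC in sh_TDP43, and between the knockdowns SDHB was higher by 0.61 (adjusted p = 0.000103) and SDHC lower by 0.28 (log2 difference -0.28, adjusted p = 0.016) in sh_SRSF3. The SDHC difference was not called without sh_TDP43 replicate 2 or sh_SRSF3 replicate 1. ATP5G1, ATP5G2 and ATP5G3 encode the same mature subunit c, which forms the rotor ring of complex V. Of these, ATP5G3 rose in sh_SRSF3 by 0.23 (adjusted p = 0.0345). That call was lost in 5 of the 11 alternatives: upper-quartile scaling (adjusted p = 0.443) and without replicate 2 of sh_control, replicate 2 of sh_TDP43 or either sh_SRSF3 library. In sh_TDP43 the log2 changes of ATP5G1, ATP5G2 and ATP5G3 were 0.20, 0.13 and -0.17 (adjusted p = 0.14, 0.25 and 0.15; ATP5G1 passed under upper-quartile scaling, with the replicate block and without sh_control replicate 1, at 0.036, 0.0453 and 0.0215).

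Genes that serve the complexes without being members were tallied from fixed lists, to be read against 20.7% of all genes higher and 24.1% lower in sh_TDP43 (44.8% called), and 32.5% and 34.4% in sh_SRSF3 (66.9% called). Of 45 assembly factors, 11 rose and 4 fell in sh_TDP43 (33.3% called, median log2 change 0.01), and 24 rose and 4 fell in sh_SRSF3 (62.2% called, median 0.37). The complex I assembly factor FOXRED1 was at 41.7 and 41.3 CPM in sh_control, 69.3 and 71.0 CPM in sh_TDP43 and 106 and 113 CPM in sh_SRSF3. Of the 13 mitochondrially encoded subunits, 3 fell in sh_TDP43, and 1 rose and 6 fell in sh_SRSF3, with 23.1% and 53.8% called and medians of -0.22 and -0.15. Of 5 further genes of the pathway outside the symbol rule, 1 rose and 1 fell in sh_TDP43, and 4 rose in sh_SRSF3. Among these, CYCS, which encodes cytochrome c, was at 345 and 282 CPM in sh_control, 244 and 214 CPM in sh_TDP43 and 434 and 409 CPM in sh_SRSF3. Of 17 tricarboxylic acid cycle enzymes, 3 rose and 4 fell in sh_TDP43 (41.2% called), and 10 rose and 3 fell in sh_SRSF3 (76.5% called). Of 16 regulators of mitochondrial biogenesis, 2 rose and 5 fell in sh_TDP43 (43.8% called), and 9 rose and 3 fell in sh_SRSF3 (75% called).

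Promoters of subunit genes are known for sites of NRF1, of ETS-family factors such as GABPA, and of YY1. RefSeq promoters on GRCh38.p14, from 250 bases before to 50 bases after the start, were matched to 68 of the 89 members, 66 of them subunit genes. They were searched on both strands for the GC-rich NRF1 motif, CCGGAAG (ETS family) and AAGATGG (YY1). The ETS and YY1 letters can overlap by AAG, and the NRF1 letters are nearly their own reverse complement, so a site was counted once whichever strand matched. Of the 66 subunit promoters, 24.2% held the NRF1 letters, beside 6.28% of all 27305 promoters of the same length. The ETS letters were in 28.8%, beside 10.7%, and the YY1 letters in 24.2%, beside 6.06%. At least 1 of the 3 was in 59.1% of subunit promoters and in 20.5% of all promoters. The set of all promoters was not limited to genes tested here or matched by GC content. Whether these shares are particular to subunit genes was therefore not tested. By complex, 48.4% of 31 complex I promoters, 3 of 3 in complex II, 7 of 7 in complex III, 7 of 14 in complex IV and 63.6% of 11 in complex V held at least 1.

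Among the regulators, the gene of the factor NRF1 was at 33.95 and 31.36 CPM in sh_control, 18.1 and 17.6 CPM in sh_TDP43 and 36.2 and 31.2 CPM in sh_SRSF3. The gene of YY1 was at 175 and 154 CPM in sh_control, 145 and 136 CPM in sh_TDP43 and 299 and 316 CPM in sh_SRSF3. NRF1 fell in sh_TDP43 (log2 change -0.87 ± 0.12, adjusted p = 5.23e-05) and YY1 rose in sh_SRSF3 (log2 change 0.90 ± 0.10, adjusted p = 1.53e-06). The part of either in the members' values was not tested.

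The 5 promoters below are shown as the 250 bases before the start, 5′ to 3′ on the gene's strand, with matches to any of the 3 motifs in capitals. SDHA has the most NRF1 matches of the members, NDUFA3 rose in both knockdowns and has NRF1 and YY1 matches, UQCR11 has NRF1 and ETS matches, and NDUFB2 and NDUFS4 had the largest falls. SDHA is at chr5:218070-218319 (plus strand), NDUFA3 at chr19:54102605-54102854 (plus strand), UQCR11 at chr19:1605463-1605712 (minus strand), NDUFB2 at chr7:140696458-140696707 (plus strand) and NDUFS4 at chr5:53560389-53560638 (plus strand), all on GRCh38.p14.
SDHA: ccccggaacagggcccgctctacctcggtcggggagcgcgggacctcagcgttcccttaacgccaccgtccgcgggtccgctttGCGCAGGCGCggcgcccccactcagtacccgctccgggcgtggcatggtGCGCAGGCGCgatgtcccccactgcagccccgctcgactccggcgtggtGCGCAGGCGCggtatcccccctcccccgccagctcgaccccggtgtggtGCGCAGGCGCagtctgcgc
NDUFA3: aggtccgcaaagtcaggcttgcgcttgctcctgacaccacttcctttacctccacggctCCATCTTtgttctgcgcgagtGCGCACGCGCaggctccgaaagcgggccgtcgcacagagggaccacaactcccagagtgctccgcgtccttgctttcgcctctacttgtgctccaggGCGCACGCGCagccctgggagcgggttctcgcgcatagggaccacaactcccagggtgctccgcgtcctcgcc
UQCR11: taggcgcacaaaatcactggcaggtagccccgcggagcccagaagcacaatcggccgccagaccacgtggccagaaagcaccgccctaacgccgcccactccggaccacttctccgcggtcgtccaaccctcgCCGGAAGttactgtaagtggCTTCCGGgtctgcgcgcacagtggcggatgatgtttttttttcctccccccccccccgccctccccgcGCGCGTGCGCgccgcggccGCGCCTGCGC
NDUFB2: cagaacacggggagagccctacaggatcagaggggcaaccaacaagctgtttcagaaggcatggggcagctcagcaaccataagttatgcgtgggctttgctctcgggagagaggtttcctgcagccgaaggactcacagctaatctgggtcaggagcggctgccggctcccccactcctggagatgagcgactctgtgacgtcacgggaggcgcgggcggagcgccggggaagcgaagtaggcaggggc
NDUFS4: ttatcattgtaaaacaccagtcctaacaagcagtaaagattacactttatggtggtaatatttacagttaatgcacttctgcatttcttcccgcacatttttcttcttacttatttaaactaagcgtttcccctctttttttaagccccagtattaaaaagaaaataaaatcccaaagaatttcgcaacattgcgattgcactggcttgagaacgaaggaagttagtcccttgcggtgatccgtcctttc
SDHA had 4 NRF1 matches in this stretch, NDUFA3 had 2 NRF1 and 1 YY1, and UQCR11 had 2 NRF1 and 2 ETS. NDUFB2 and NDUFS4 had none of the 3 in these 250 bases; NDUFS4 had a YY1 match in the 50 bases after the start. A match is a run of letters, and binding was not measured here.

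**Figure D4:**
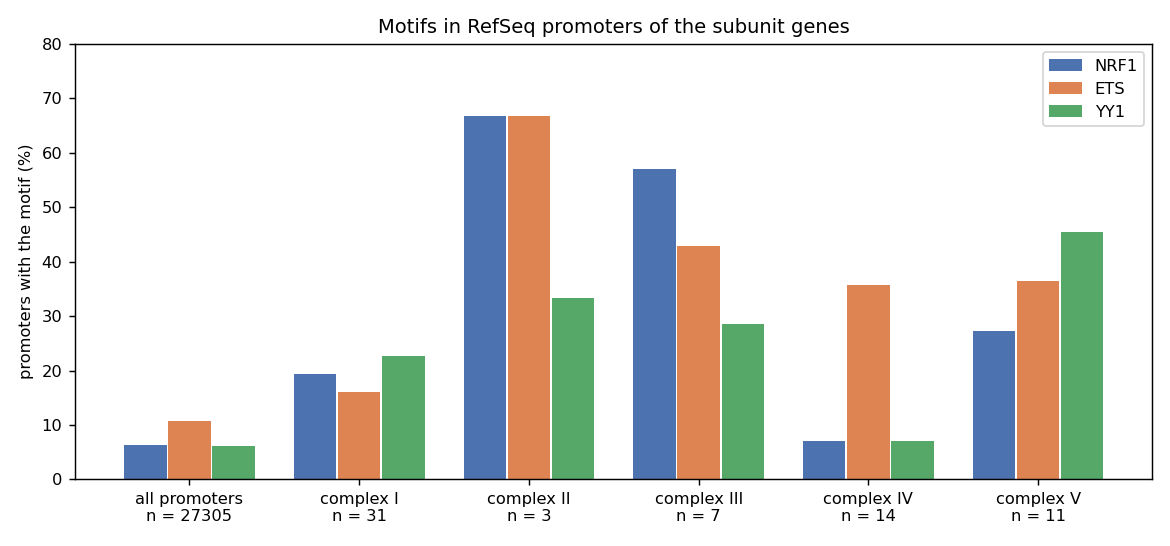
Percent of promoters (250 bases before to 50 after the start) that hold the NRF1, ETS or YY1 letters, for all 27305 RefSeq promoters and for the matched genes of each complex, with the number of promoters under each group. All promoters stood at 6.28%, 10.7% and 6.06%, and the bars of complexes II and III rest on 3 and 7 promoters.

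In the RIPs the subunit transcripts were spread on both sides of the input, from far above it (ATP5O with TDP43) to far below it (COX7A2 with both proteins). With 1 library each there is no replicate check and no test. Values are log2 of RIP over input FPKM, with 0.1 FPKM added to both, for genes with a mean of at least 1 FPKM. FPKM summed over all genes to 505828 in the Flag-TDP43 input and 185564 in its RIP, and to 531147 and 283345 for Flag-SRSF3. Above and below input refer to FPKM as given, without scaling to a common sum. As a share of these sums, the subunit genes held 0.543% and 1.988% for Flag-TDP43, and 0.551% and 1.179% for Flag-SRSF3. As a check of the labels, TARDBP was at 14.2 FPKM in the Flag-TDP43 input and 1.76 FPKM in the Flag-SRSF3 input. SRSF3 was at 54.9 FPKM in the Flag-SRSF3 input and 29.3 FPKM in the Flag-TDP43 input.

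In the Flag-TDP43 RIP, 74 subunit genes passed the filter. Of these, 17 were at least 2-fold above input and 21 at least 2-fold below, or 23.0% and 28.4%, beside 20.4% and 18.2% of all genes passing. The median log2 ratio was -0.07, beside 0.04 for all genes. Medians of the complexes were 0.03 for complex I, -0.65 for II, 0.21 for III, -0.30 for IV and -0.19 for V. High values included ATP5O, the oligomycin-sensitivity protein of the complex V stalk, at 8.09 FPKM in input and 73.2 FPKM in RIP (log2 ratio 3.16). Others were ATP5L at 2.65, NDUFB1 at 2.43 and NDUFS5 at 2.29. ATP5B was at 118 FPKM in input and 563 FPKM in RIP (log2 ratio 2.25).

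Of the 7 core subunits of complex I, 4 were at least 2-fold above input in the Flag-TDP43 RIP and 2 at least 2-fold below. Those above included NDUFS1 at 1.36, NDUFS3 at 1.55 and NDUFV1 at 1.75. NDUFS7 was at -2.32 and NDUFV2 at -1.04. Low values in this RIP also included ATP5J2 at -4.78, NDUFA4 at -3.59, COX7A2 at -3.35, NDUFA7 at -3.02 and COX8A at -2.99. ATP5E and NDUFS6 had the lowest log2 ratios, -5.78 and -5.68. In the authors' second table of normalised signal, these 2 stood at 0.25 and 1.43, so their direction depended on the table. Of the 38 subunit genes past 2-fold by FPKM in this RIP, 34 were past 2-fold in the same direction in the second table.

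In the Flag-SRSF3 RIP, 73 subunit genes passed. Of these, 13 were at least 2-fold above input and 19 at least 2-fold below, or 17.8% and 26.03%, beside 20.1% and 10.1% of all genes passing. The median log2 ratio was -0.13, beside 0.21 for all genes. Medians were -0.11 for complex I, -0.21 for II, -0.64 for III, -0.16 for IV and 0.14 for V. The lowest was COX7A2, at 56.6 FPKM in input and 4.21 FPKM in RIP (log2 ratio -3.72), followed by NDUFB1 at -3.22, COX6C at -3.18, NDUFA5 at -2.71 and NDUFA1 at -2.63. COX6C, NDUFA5 and NDUFB4 have 17, 12 and 12 pseudogenes named in the RIP table, whose reads could be split with theirs. The highest were NDUFS6 at 4.27, NDUFV3 at 2.01, COX5A at 1.97, NDUFB4 at 1.96 and NDUFA3 at 1.88. NDUFS6 stood at -1.84 in the second table, and its Flag-SRSF3 input was 0.34 FPKM, beside 27.7 FPKM in the Flag-TDP43 input. COX5A stood at 0.77 in the second table, and its Flag-SRSF3 input was 1.04 FPKM, beside 4.10 FPKM in the Flag-TDP43 input. NDUFV3, NDUFB4 and NDUFA3 stood at 1.03, 1.74 and 1.90 in the second table. Of the 32 subunit genes past 2-fold, 24 were past 2-fold in the same direction in the second table.

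Over the 73 subunit genes that passed in both RIPs, the 2 log2 ratios had a Pearson's r of -0.40 across genes, beside -0.09 over 9162 genes, and -0.32 without NDUFS6 and ATP5E; genes are not independent replicates. None of the 73 was at least 2-fold above input in both RIPs, and 3 were at least 2-fold below in both: COX5B, COX7A2 and UQCRC2. At least 2-fold above input with TDP43 and at least 2-fold below with SRSF3 were 8 genes, among them ATP5L, ATP5O, COX4I1, COX6C, COX7A2L, NDUFB1 and NDUFB9. The reverse held for 7 genes: ATP5G1, COX6B1, NDUFA7, NDUFB4, NDUFS6, NDUFS7 and NDUFV3. In the second table NDUFS6 was on the opposite side in both RIPs (1.43 with TDP43 and -1.84 with SRSF3). Of the groups of 3, 8 and 7 genes, 2, 6 and 3 were past 2-fold in the same directions in that table as well. Such groups were not counted over all genes, so whether these sizes are particular to the subunit genes is not known. The 3 subunit c genes were all above input with SRSF3, at 1.10 for ATP5G1, 1.21 for ATP5G2 and 0.30 for ATP5G3, and with TDP43 they were at -2.96, -0.62 and 0.88. The 13 mitochondrially encoded subunits had medians of -2.02 with TDP43 and 1.88 with SRSF3.

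**Figure D5:**
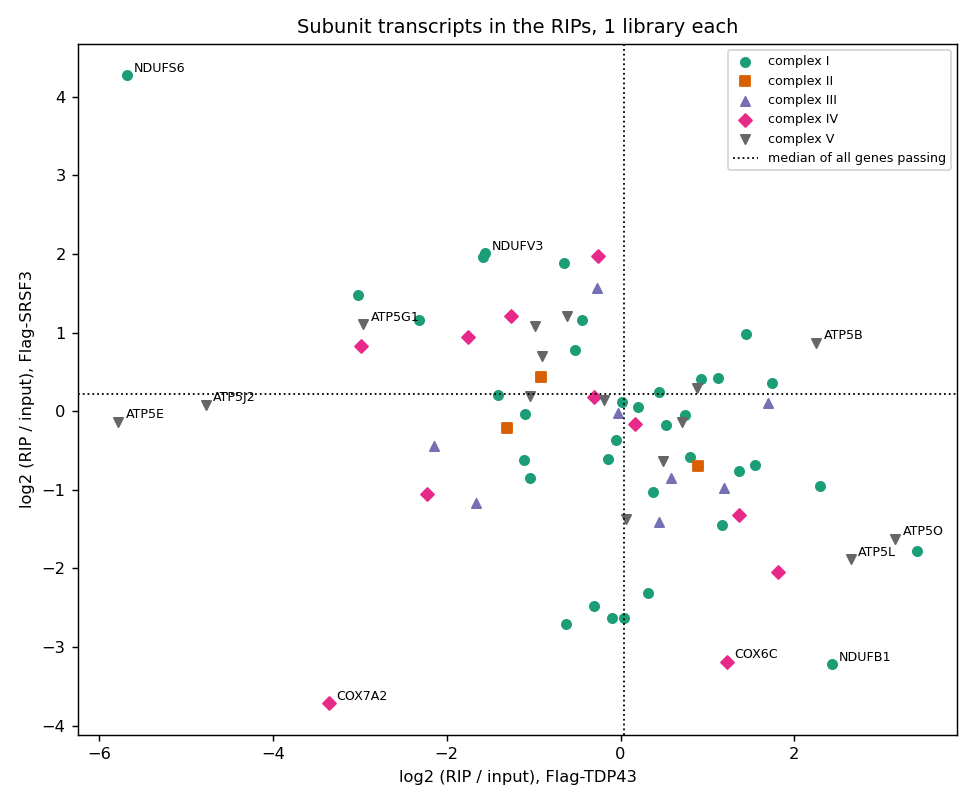
Log2 ratio of RIP over input for the 73 subunit genes that passed in both RIPs, Flag-TDP43 on the x axis and Flag-SRSF3 on the y axis, coloured by complex, with dotted lines at the medians of all genes passing (0.04 and 0.21). ATP5O, ATP5L and NDUFB1 lie at the lower right, and NDUFS6, whose direction differed between the deposited tables, at the upper left.

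The RIP ratios of the members with the largest changes in the knockdowns lay on both sides of 0. NDUFB2, low in sh_SRSF3, was at -0.61 in the Flag-SRSF3 RIP and -0.14 in the Flag-TDP43 RIP. NDUFS4 was at -0.37 and -0.05, and NDUFV3, low in both knockdowns, was at 2.01 with SRSF3 and -1.56 with TDP43. ATP5B, low in sh_TDP43, was at 2.25 with TDP43 and 0.87 with SRSF3. ATP5D, low in sh_SRSF3, was at 1.08 with SRSF3 and -0.99 with TDP43. Across the subunit genes, Pearson's r between the RIP ratio and the log2 change in the knockdown of the same protein was -0.01 for TDP43 (n = 74 genes) and -0.23 for SRSF3 (n = 73 genes).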

How the data were processed

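Of the 12 samples, 6 hairpin RNA-seq libraries and 4 RIP or input libraries were used; groups come from the sample titles. Per the file headers, the knockdown file holds raw read counts per gene made by the authors with featureCounts 1.4.6-p5 over exons, with no strand option, so reads of overlapping or antisense genes cannot be told apart. Per the file headers, the RIP table holds the authors' FPKM and their log2 fold of RIP over input. The log2 fold matched the deposited FPKM for 16997 and 17062 genes (within 1e-06) and was not used further. A second table of the RIPs, also deposited, holds a normalised signal and its log2 fold. Neither header nor labels name its unit. The submitters' processing notes name GRCh37, STAR 2.5.2a, HISAT2 2.0.5, StringTie 1.3.0 and Cufflinks, with no role stated.

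Names were joined by Ensembl identifier. The count table held 2 per-sample columns whose names match no label, and these were not used, so 6 libraries were fitted where 8 had been planned. edgeR 4.0.16 (R 4.3.3, TMM, filterByExpr, quasi-likelihood, two-sided) was fitted to the 6 libraries without covariates, with 3 residual degrees of freedom. It was also run on simulated data with few changed genes and the same spread for every gene. These libraries differ from that setting, so the run does not check the calls here. The SE is the absolute log2 change divided by the square root of F. Since separate cultures are not stated, the p-values cover only the spread of these libraries, and that spread may be technical. Within each group the 2 libraries were further apart than sampling noise allows (chi-square per gene 11.3 to 23.6). Between groups, the replicate differences correlated by 0.0755 to 0.12, and with 2 pairs the numbers were not taken to pair the libraries. RIP ratios used 0.1 FPKM added to both values and a mean of at least 1 FPKM, and depth followed from the value of 1 read (0.0351 to 0.0361 FPKM per kb of exon). DESeq2 1.42.0, other scaling, filters and subsets were alternatives.

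Genes were named by this rule: in each knockdown comparison the 5 largest rises and 5 largest falls among called members with a mean of at least 1 CPM, the highest member per kb in each complex, all of complex II, the subunit c genes, tissue isoforms, and the 5 highest and lowest RIP ratios. A gene that this rule names is not reported here. Other genes, the gene groups across both RIPs and the promoters shown were picked after their values were seen. The members and lists were chosen with earlier results of these data known.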

Additional observations from a re-analysis of the deposited data

Results flagged for a closer look

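NDUFS4 moved in opposite directions in the 2 knockdowns: both sh_TDP43 libraries (23.1 and 19.0 CPM) were below and both sh_SRSF3 libraries (72.3 and 73.0 CPM) above the sh_control libraries (48.8 and 42.5 CPM). The difference between sh_SRSF3 and sh_TDP43 was 1.79 on the log2 scale (edgeR, adjusted p = 1.87e-08). It passed the threshold with each of the 6 libraries left out and in each of the 5 other settings tried. Its cause was not tested.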

How the results depend on the processing

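The direction and call of NDUFB2, ATP5D and ATP5J2 in sh_SRSF3, of NDUFS4, NDUFB5, NDUFA3 and NDUFV3 in both knockdowns, and of ATP5B and ATP5H in sh_TDP43 were kept in all 11 alternatives. Upper-quartile scaling shifted all changes together, to a median over all genes of 0.09 in sh_TDP43, -0.19 in sh_SRSF3 and -0.285 between them. Member calls in sh_TDP43 became 35 (32 higher, 3 lower), those in sh_SRSF3 18 higher and 12 lower, and those between the knockdowns 9 higher and 30 lower. Over all 15026 genes the calls under this scaling were 6934, 9979 and 9829 in the same order. Medians of complexes I to V under it were 0.24, 0.10, 0.105, 0.25 and 0.12 in sh_TDP43, 0.083, -0.016, -0.048, -0.05 and -0.02 in sh_SRSF3, and -0.18, -0.28, -0.20, -0.24 and -0.20 between them. It also turned the uncalled changes of NDUFB2 (0.041), ATP5J2 (0.045) and SDHB (0.021) in sh_TDP43 and of SDHD in sh_SRSF3 against sh_control (-0.076), and DESeq2 turned that of ATP5G2 in sh_SRSF3 (0.002). Without the filter on low counts the complex IV median between the knockdowns was -0.056. The replicate number as a block gave 33, 41 and 45 member calls, beside 23, 36 and 36, a pairing that the labels do not state. Over all 15026 genes the block gave 7672, 10565 and 10413 calls, beside 6728, 10045 and 9842. Without the 27 members that share at least 10% of their exon bases with another gene, chosen after seeing the data, calls were 19, 27 and 26. These are calls among fewer tested members, so they are not comparable with the full counts as shares.

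Leaving out 1 library at a time, with a lone library assumed to vary like the others, gave 14 to 30 member calls in sh_TDP43 (10 to 27 higher, 3 to 7 lower), 29 to 40 in sh_SRSF3 (21 to 33 higher, 6 to 9 lower) and 20 to 44 between them (12 to 24 higher, 7 to 20 lower). Calls over all genes also moved in these settings, so the member counts are not to be read alone. Medians of complexes I to V then ranged from 0.092 to 0.26, -0.083 to 0.091, -0.025 to 0.035, 0.065 to 0.18 and -0.03 to 0.185 in sh_TDP43. In sh_SRSF3 they ranged from 0.18 to 0.31, 0.10 to 0.165, 0.065 to 0.20, 0.07 to 0.13 and 0.014 to 0.18. Between the knockdowns they ranged from 0.04 to 0.13, -0.125 to 0.056, -0.01 to 0.10, -0.066 to 0.04 and 0.002 to 0.07. Changes that were not called and crossed 0 in sh_TDP43 were those of NDUFA12 (-0.026 to 0.31), NDUFB2 (-0.27 to 0.18), ATP5D (-0.29 to 0.037), ATP5J2 (-0.15 to 0.041), SDHA (-0.13 to 0.14), SDHB (-0.17 to 0.014) and SDHD (-0.10 to 0.11). In sh_SRSF3 they were those of UQCRHL (-0.18 to 0.13), ATP5H (-0.078 to 0.022), SDHA (-0.26 to 0.012), ATP5G1 (-0.24 to 0.061) and ATP5G2 (-0.077 to 0.045).

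Among the RIP medians of Flag-TDP43, complex II was -0.54 with 1 FPKM added, and complexes III, IV and V were 0.032, -0.78 and -0.063 without the filter and -0.12, -0.83 and 0.042 in the second table, an alternative chosen after seeing the data. Among those of Flag-SRSF3, complexes II and III were -0.45 and -0.84 without the filter. Centred on all genes, complexes I to V were -0.32, -0.43, -0.85, -0.37 and -0.073, with 8 members at least 2-fold higher in place of 14. In the second table complexes I, II and V were -0.56, -0.50 and 0.26, with 9 members at least 2-fold higher. The cause of these differences was not tested. Alternatives for the combined knockdown were not run, since its libraries were not analysed here. With 2 libraries a group, changes near the median SE of 0.102 could not be told from 0, and larger ones could also miss the threshold. In sh_TDP43, NDUFA8 at 0.25 ± 0.10 (edgeR, adjusted p = 0.0629) and UQCRC1 at -0.26 ± 0.10 (0.0503) were not called. COX6B1 at 0.24 ± 0.09 (0.0454) was called. The RIPs have counting depth only.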
